A study of Mus musculus with 6 samples.

Results

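The enzymes that hydroxylate collagen inside the cell and crosslink it outside were represented by 10 genes, Lox, Loxl1, Loxl2, Loxl3, Plod1, Plod2, Plod3, P4ha1, P4ha2 and Serpinh1. They were chosen as a listed set and matched by symbol to a two-colour array table of mouse fat, where 13 of 23556 probes carried these symbols, 2 probes each for Loxl2, Plod1 and Plod3 and 1 for each of the others. All 10 were among the 17024 genes tested. The tissue was eWAT, or epididymal white adipose tissue, a fat pad attached to the epididymis. The groups were 3 obese db/db mice, described in the labels as severely hyperglycemic, and 3 lean db/+ mice, all 10 weeks old and all vehicle-treated per the file headers. The db mutation removes the signalling form of the leptin receptor in every tissue, and db/+ mice carry 1 mutant copy, so both groups carry the allele. On each of the 6 arrays a single mouse was labelled with Cy5 and a vehicle-treated pool of lean eWAT with Cy3, with no dye swap, and the labels call the mice biological replicates. Values are log2 ratios of mouse (Cy5) to pool (Cy3), so that 0 is the level of the lean pool.

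Collagen chains are modified in the endoplasmic reticulum while they fold. Prolyl 4-hydroxylases, built from a catalytic alpha subunit (P4ha1 or P4ha2) and P4hb, make the hydroxyproline that keeps the collagen helix stable at body temperature, lysyl hydroxylases (the Plod genes) make the hydroxylysine used in sugar attachment and in crosslinks, and the chaperone HSP47, product of Serpinh1, binds the folded procollagen helix on its way out of the cell. Lysyl oxidases (Lox and the Loxl genes) are secreted copper enzymes that oxidise lysine and hydroxylysine side chains of collagen and elastin, which then react into covalent crosslinks, and crosslinked collagen makes the matrix around fat cells stiffer.

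The hydroxylase and chaperone genes are shown with the sequence around their start sites, because paralogues and partners of the same pathway had different patterns over the db/db mice and several of these genes are known targets of hypoxia-inducible factors. RefSeq promoters of GRCm38.p6, from 250 bases before to 50 bases after the start, were matched for 5 of the 10 members. The windows of P4ha1 (chr10:59323046-59323345, plus strand), P4ha2 (chr11:54100674-54100973, plus strand), Plod3 (chr5:136986769-136987068, plus strand) and Serpinh1 (chr7:99353190-99353489, minus strand) are printed 5′ to 3′ along the gene, with the hypoxia response core ACGTG in capitals, or CACGT where it lies on the opposite strand.
P4ha1: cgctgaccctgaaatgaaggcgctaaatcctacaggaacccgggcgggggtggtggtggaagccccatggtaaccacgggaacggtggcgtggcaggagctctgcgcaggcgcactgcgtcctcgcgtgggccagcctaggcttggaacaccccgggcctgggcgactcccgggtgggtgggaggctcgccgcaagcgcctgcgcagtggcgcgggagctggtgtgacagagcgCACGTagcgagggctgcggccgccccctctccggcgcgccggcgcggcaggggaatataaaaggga
P4ha2: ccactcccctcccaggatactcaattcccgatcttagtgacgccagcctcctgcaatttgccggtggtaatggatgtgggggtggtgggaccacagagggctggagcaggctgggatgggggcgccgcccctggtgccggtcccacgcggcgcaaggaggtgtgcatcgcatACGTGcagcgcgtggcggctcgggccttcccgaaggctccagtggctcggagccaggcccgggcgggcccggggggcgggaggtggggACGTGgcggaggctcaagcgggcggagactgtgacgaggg
Plod3: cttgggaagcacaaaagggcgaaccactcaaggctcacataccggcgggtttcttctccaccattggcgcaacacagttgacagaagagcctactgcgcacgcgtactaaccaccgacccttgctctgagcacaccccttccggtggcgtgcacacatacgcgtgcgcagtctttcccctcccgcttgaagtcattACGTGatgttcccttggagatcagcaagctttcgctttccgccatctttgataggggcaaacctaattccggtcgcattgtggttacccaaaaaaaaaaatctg
Serpinh1: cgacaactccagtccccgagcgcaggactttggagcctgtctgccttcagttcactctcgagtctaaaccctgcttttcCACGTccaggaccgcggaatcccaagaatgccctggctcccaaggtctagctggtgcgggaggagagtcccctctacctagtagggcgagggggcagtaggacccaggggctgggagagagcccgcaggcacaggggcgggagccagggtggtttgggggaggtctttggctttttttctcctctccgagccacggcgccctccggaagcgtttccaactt
Both strands were searched for ACGTG, which is also contained in the E-box CACGTG; no match printed here is part of a CACGTG. P4ha2 held 2 matches, beginning at -78 and 10 from the start, and P4ha1, Plod3 and Serpinh1 held 1 each, beginning at -16, -54 and -171, while the window of Plod1 held none. Of all 32851 promoters in the table, 19.6% held the motif. The heat shock core GAANNTTC, present in 7.86% of all promoters, was found only in the window of Plod1, beginning at 42. These matches describe the letters of the windows and say nothing on whether a factor binds there.

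Lox was the 1 member of 10 that passed the test, and it was higher in db/db fat in every mouse. P4ha2 was far above the pool in 2 of the 3 db/db mice and near it in the other, and did not pass. The remaining 8 members had fold changes between -0.22 and 0.39 on the log2 scale, and none passed. Over all genes tested, 6.68% were called at an adjusted p under 0.05, 2.92% higher and 3.77% lower in db/db, so the share of members called lay near the background. At an unadjusted p under 0.05 it was 1 member of 10, against 23.2% of all genes. The median log2 fold change was 0.04 over the 10 members and 0.0 over all genes. The 3 db/+ mice, lean like the pool, served as the background of the measurement. Against the lean pool, 0 of 10 members and 0 of 17024 genes passed in limma, and 0 members had an unadjusted p under 0.05. The variance in this test was pooled over both groups, so the spread of the db/db arrays widened its intervals. P4ha2, with an SD of 0.12 in db/+ and 0.82 in db/db, had a db/+ interval of -0.78 to 0.83. Differences of the db/+ mice from the pool could therefore be missed.

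**Figure D1:**
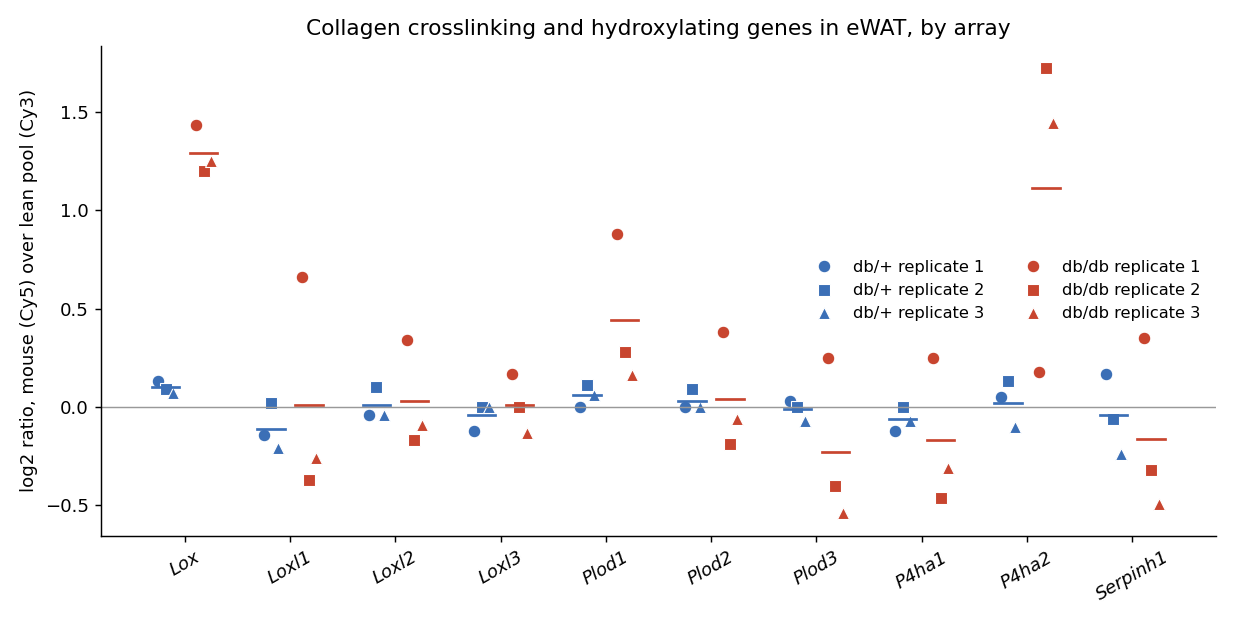
Log2 ratio of each mouse over the lean pool for the 10 genes, with 1 point per array and a bar at the group mean (blue, db/+; red, db/db). All 3 db/db mice lie above the db/+ mice for Lox, Plod1 and P4ha2, by a wide margin in each mouse only for Lox. P4ha2 is far above in replicates 2 and 3, and in all genes but P4ha2 db/db replicate 1 (circle) is the highest array.

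Among the lysyl oxidases, Lox, the founding enzyme of the family, had log2 ratios of 0.13, 0.09 and 0.07 in the db/+ mice and of 1.43, 1.20 and 1.25 in the db/db mice, in each case for replicates 1, 2 and 3 in that order, as in all such lists that follow. The db/db mice all stood above the db/+ mice, and their spread (SD 0.12) was small against the gap. The log2 fold change was 1.19 ± 0.07 (SE, n = 3 per group; 95% interval 1.01 to 1.38), or 2.28-fold (2.01 to 2.60), with an adjusted p of 0.00702 in limma. The Cy5 intensity, on the authors' normalised scale, was 1.02, 0.96 and 0.99 in the db/+ mice and 2.31, 2.04 and 2.45 in the db/db mice, while the pool read between 0.89 and 0.97 on the same 6 arrays. The difference thus lay in the mouse channel. Of all genes tested, 2.61% had a higher log2 fold change than Lox. The call was lost under 3 of 19 alternatives, among them quantile normalisation of the ratios (0.73, adjusted p = 0.205) and leaving out db/+ replicate 3 (1.18, adjusted p = 0.0562), and over the alternatives tried the adjusted p ran from 0.00213 to 0.205. RNA came from a whole fat pad, so here and below more cells of a type and more RNA per cell cannot be told apart.

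The other lysyl oxidases did not pass. Loxl1, which is needed for elastic fibre upkeep, had log2 ratios of -0.14, 0.02 and -0.21 in the db/+ mice and of 0.66, -0.37 and -0.26 in the db/db mice. One db/db mouse was thus above all lean mice and the others below them, and its fold change of 0.12 ± 0.31 on the log2 scale (SE, n = 3 per group; 95% interval -0.67 to 0.92) had an adjusted p of 0.861. Loxl2, which crosslinks collagen IV of basement membranes, had ratios of -0.04, 0.10 and -0.04 in db/+ and of 0.34, -0.17 and -0.09 in db/db. Its groups overlapped in the same way, with a log2 fold change of 0.02 ± 0.15 (95% interval -0.37 to 0.42; adjusted p = 0.986). The other probe filed as Loxl2 was dim, with a Cy5 intensity between 0.08 and 0.18, where 1 step of 0.01 in the deposited values is 11.1% of the db/+ level. It gave 0.39 ± 0.32 (adjusted p = 0.557 in a fit of every probe). The RefSeq gene table also lists Loxl2 as an older name of Loxl3, so the gene behind a probe with that symbol is uncertain. Loxl3, which acts on collagen and fibronectin, was likewise dim (mean Cy5 0.127 in db/+ and 0.147 in db/db) and had ratios of -0.12, 0 and 0 in db/+ and of 0.17, 0 and -0.13 in db/db. No difference was resolved for it (0.05 ± 0.09, 95% interval -0.18 to 0.29; adjusted p = 0.757).

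The difference between Lox and each relative was then taken array by array. Lox minus Loxl1 was 0.27, 0.08 and 0.28 in the db/+ mice and 0.76, 1.56 and 1.51 in the db/db mice, a difference between group means of 1.07. Lox minus Loxl2 differed by 1.17 and Lox minus Loxl3 by 1.14, again with no overlap of the groups. Lox thus stood higher relative to all 3 relatives in every db/db mouse than in any lean mouse. The exact two-sided permutation test gave p = 0.1 for each, the smallest value that 3 against 3 arrays allow, and 0.133 after adjustment over the 8 pairs of members compared.

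**Figure D2:**
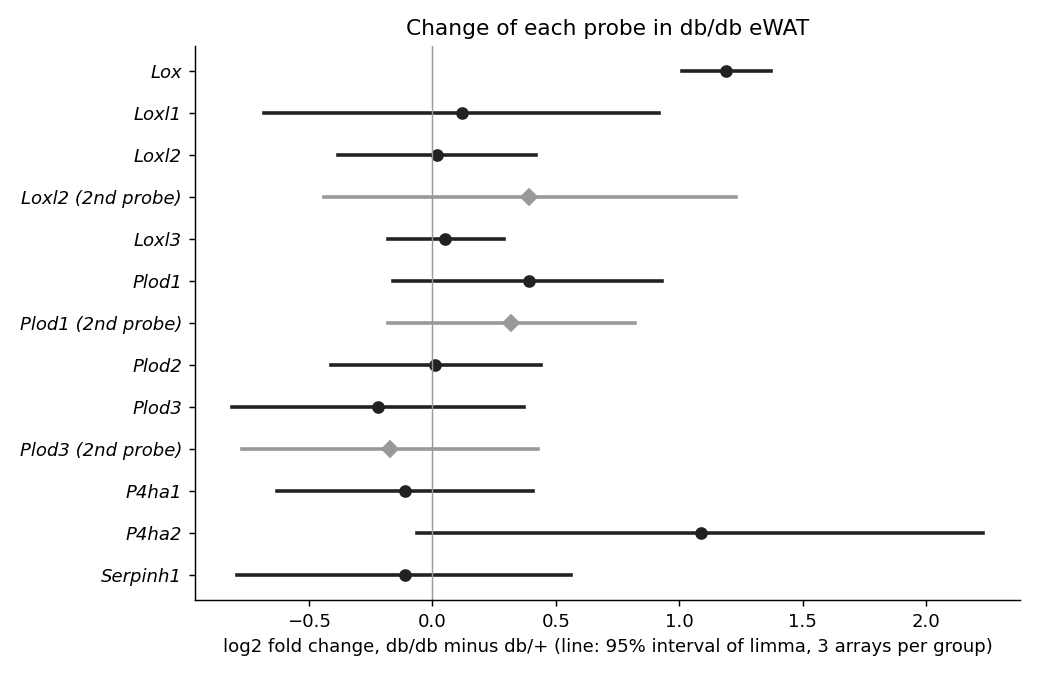
Log2 fold change of db/db over db/+ for each of the 13 probes with the 95% interval of limma (3 arrays per group; black circles, the probe used for the gene; grey diamonds, the other probe). The interval of Lox, from 1.01 to 1.38, lies wholly above 0, while the intervals of all others, P4ha2 included, contain 0.

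Of the lysyl hydroxylases, Plod1, which modifies lysines within the collagen helix, had log2 ratios of 0, 0.11 and 0.06 in db/+ and of 0.88, 0.28 and 0.16 in db/db. All 3 db/db mice stood above the lean mice, replicate 1 by the widest margin, but the change of 0.39 ± 0.21 on the log2 scale (SE, n = 3 per group; 95% interval -0.16 to 0.93) did not pass (adjusted p = 0.342). Its other probe gave 0.75, 0.13 and 0.14 in the db/db mice, the same order of replicate 1 over the rest. Plod2, the enzyme that hydroxylates the ends of collagen chains and so sets the kind of crosslink formed, had ratios of 0, 0.09 and 0 in db/+ and of 0.38, -0.19 and -0.06 in db/db. The lean mice lay between the db/db mice, and the log2 fold change was 0.01 ± 0.16 (95% interval -0.41 to 0.43; adjusted p = 1.0). Plod3, which also transfers sugars to hydroxylysine, had ratios of 0.03, 0 and -0.07 in db/+ and of 0.25, -0.40 and -0.54 in db/db. Here db/db replicate 1 was above and replicates 2 and 3 were below every lean mouse, for a log2 fold change of -0.22 ± 0.23 (95% interval -0.80 to 0.37; adjusted p = 0.578). The other Plod3 probe, which is dimmer, showed the same order, with 0.29, -0.42 and -0.48 in the db/db mice.

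Plod2 was compared with its paralogues on the same arrays. The probes used for Plod1 and Plod2 were dim, each with a mean Cy5 of 0.263 in db/+. One step of 0.01 is 3.8% of that level, and the pool read between 0.22 and 0.32 for Plod2. Plod2 minus Plod1 was 0, -0.02 and -0.06 in the db/+ mice and -0.50, -0.48 and -0.22 in the db/db mice. Plod2 thus stood lower relative to Plod1 in every db/db mouse, by -0.37 on average. Plod2 minus Plod3 differed by 0.23 in the other direction, also without overlap. The sizes varied with the setting: with Cy5 intensity alone they were -0.17 and 0.39, and Plod2 minus Plod3 was 0.12 without db/db replicate 3. Both had an exact permutation p of 0.1 (two-sided, n = 3 per group; 0.133 adjusted over the pairs), which is the smallest possible.

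The catalytic subunits of prolyl 4-hydroxylase differed in their pattern over the db/db mice. P4ha1, the widely expressed subunit, had log2 ratios of -0.12, 0 and -0.07 in db/+ and of 0.25, -0.46 and -0.31 in db/db. Its log2 fold change was -0.11 ± 0.20 (SE, n = 3 per group; 95% interval -0.63 to 0.41; adjusted p = 0.773), and its probe was dim, reading 0.24 in db/+ and 0.23 in db/db on average in Cy5. P4ha2, known from cartilage and bone cells, had ratios of 0.05, 0.13 and -0.10 in db/+ and of 0.18, 1.72 and 1.44 in db/db. Replicates 2 and 3 were thus clearly above the lean mice, while replicate 1 exceeded the highest of them only slightly. The Cy5 intensity of the 3 db/db mice, which carry no replicate number in that table, was 11.79, 13.2 and 4.91, against 4.52, 4.34 and 3.72 in the db/+ mice and between 3.97 and 4.38 in the pool. The log2 fold change of 1.09 ± 0.44 (95% interval -0.05 to 2.22), or 2.13-fold (0.967 to 4.67), did not pass (adjusted p = 0.232). Without db/db replicate 1 it was 1.55 and passed (adjusted p = 0.0106), it also passed when arrays were weighted by their quality (1.46, adjusted p = 0.0321), and with replicate 1 as the only db/db mouse it was 0.15 (adjusted p = 0.585). P4ha1 minus P4ha2 was 0.07, -2.18 and -1.75 in the db/db mice and between -0.16 and 0.03 in the lean mice. The groups overlapped (exact permutation p = 0.4, n = 3 per group; 0.457 adjusted over the pairs).

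Serpinh1, which encodes the collagen chaperone HSP47, had log2 ratios of 0.17, -0.06 and -0.24 in db/+ and of 0.35, -0.32 and -0.49 in db/db. The db/db mice lay on either side of the lean mice, and the log2 fold change was -0.11 ± 0.26 (SE, n = 3 per group; 95% interval -0.78 to 0.55; adjusted p = 0.837). Its probe was bright, with Cy5 intensities of 12.68, 10.02 and 9.64 in the lean mice and of 8.76, 9.25 and 15.06 in the db/db mice (unnumbered), and no member lay near the ceiling of an array. Serpinh1 minus P4ha1 had the same mean in both groups, a difference of 0.0 (exact permutation p = 1.0, n = 3 per group).

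**Figure D3:**
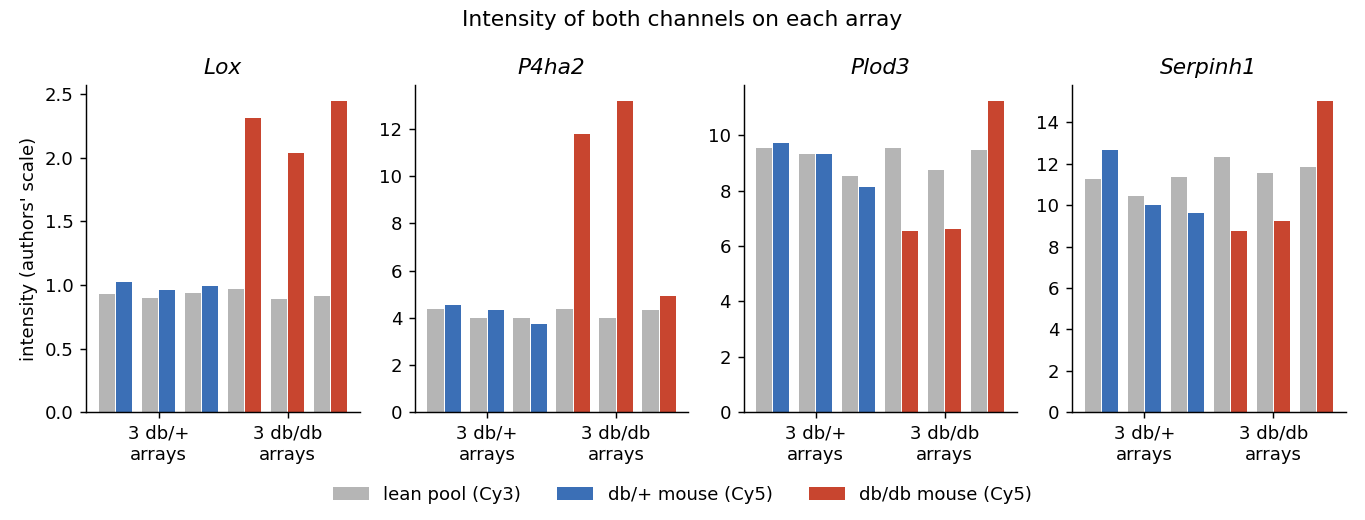
Intensity of the lean pool (grey, Cy3) and of the mouse (Cy5; blue, db/+; red, db/db) on each of the 6 arrays for Lox, P4ha2, Plod3 and Serpinh1, on the authors' normalised linear scale, the db/db arrays in the order of the table. The pool stays between 0.89 and 0.97 for Lox, and the 3 db/db mice read from 2.04 to 2.45; for P4ha2 they read 11.79, 13.2 and 4.91.

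The members split the db/db mice in 1 recurring way, described here after the values were seen. For 9 of 10 members, all but P4ha2, db/db replicate 1 was the highest of the 6 arrays, which held for 21.4% of all genes measured on every array. For 6 members, Loxl1, Loxl2, Plod2, Plod3, P4ha1 and Serpinh1, replicates 2 and 3 lay below all db/+ mice, as in 25.4% of all genes, and the same 6 also had replicate 1 as the highest array, a combination found in 3.67% of all genes. P4ha2 was the 1 member with replicates 2 and 3 above the 4 other arrays, as were 13.3% of all genes. The groups did not overlap for 3 members, Lox, Plod1 and P4ha2, all higher in db/db, against 26.1% of all genes in either direction and 11.4% higher. When db/db replicate 1 was left out, 3 members passed, Lox and P4ha2 higher and Plod3 lower (-0.46, adjusted p = 0.0218). The calls over all genes rose as well, from 1138 to 3427, so the larger count was not particular to the members. With it as the only db/db mouse, an alternative added after the data were seen, Lox was at 1.33, Plod1 at 0.83 and the median of the members at 0.34. With 1 mouse left, its spread was taken to be that of the db/+ mice.

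Markers of other cell types were set beside these patterns, and not all lists followed them. Of 14 epididymis epithelium markers, 12 were tested, and all 12 were higher in db/db replicates 2 and 3 than on every other array that measured them, with a median log2 ratio of 0.67, 0.03 and -1.81 in the db/+ mice and of -1.68, 3.70 and 4.15 in the db/db mice. Their summed Cy5 intensity ran from 1.60 to 11.9 over the db/+ mice and from 1.57 to 159.0 over the db/db mice, missing values left out. No marker had a group mean at or below 0.05, but single readings went down to 0.01, which is 1 step of the deposited values. The low ratios of these markers are therefore coarse. Replicates 2 and 3 are also the db/db mice in which P4ha2 was high. With the median of these markers as a covariate, the log2 fold change of P4ha2 was 0.55 (adjusted p = 0.22) and that of Lox 1.26 (adjusted p = 0.021), while Plod3 (0.04), P4ha1 (0.12) and Serpinh1 (0.12) changed sign. Of 10 macrophage markers, 9 were tested, 4 of them called higher and 0 lower, and db/db replicate 1 was the highest array in 9 of 9. The median macrophage marker had a log2 ratio of 2.12, 0.82 and 1.27 in the db/db mice, and their summed Cy5 intensity was 15 to 21.7 in db/+ and 39.4 to 86.5 in db/db. Fibroblast and progenitor markers, the cells best known for making collagen, had medians of 0.23, -0.17 and -0.26 in the db/db mice, with 0 of 9 called higher and 1 lower, and a summed Cy5 intensity of 42.3 to 47.8 in db/+ and 28.4 to 44.0 in db/db. These medians did not describe each marker. Replicate 1 of db/db was the highest array in 3 of 9, and 0 of 9 also had replicates 2 and 3 below all db/+ mice. Their log2 fold changes ran from -1.20 for Dpt to 0.64 for Pdgfra. Smooth muscle and pericyte markers, none of 8 called, had medians of -0.17, 0.29 and 0.36. The summed Cy5 intensity of 9 adipocyte markers, of which 1 was called higher and 5 lower, was 96.8 to 124.0 in db/+ and 42.8 to 56.7 in db/db, and no adipocyte marker tested had a group mean at or below 0.05. Endothelial markers had a median log2 fold change of -0.46, with 0 of 7 called higher and 1 lower, and mesothelial markers one of -0.03 with none of 6 called. Replicates 2 and 3 of db/db lay below all db/+ mice in 7 of 7 endothelial markers and in 7 of 8 adipocyte markers measured on every array. The same held for 25.4% of all genes. Replicate 1 was the highest array in 0 of these 7 and in 1 of these 8. Among the db/db mice the epididymis covariate mainly separates replicate 1 from replicates 2 and 3. It therefore cannot tell epididymis content from any other difference between these mice. The part of cell makeup in the members' values was not tested.

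**Figure D4:**
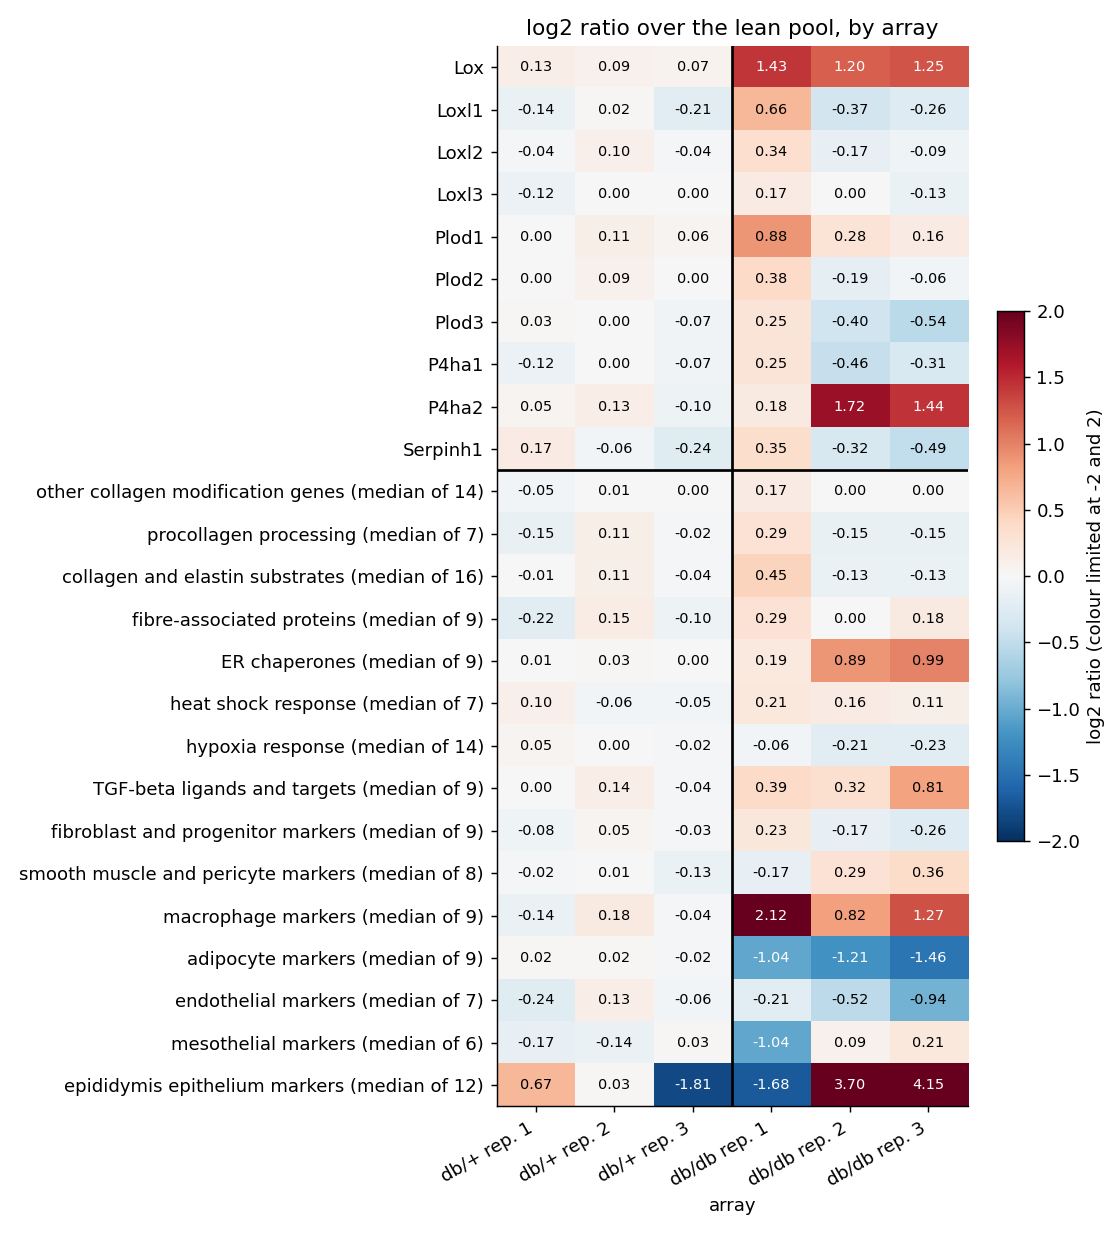
Log2 ratio over the lean pool on each array for the 10 genes and, under the line, the median of each related gene list and cell type marker list, with the number of genes in brackets. The 3 db/db columns differ: replicate 1 is high for macrophage markers (2.12) and most members, and replicates 2 and 3 are high for epididymis markers (3.70 and 4.15), endoplasmic reticulum chaperones and P4ha2.

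The other genes of the pathway gave few calls. Of 16 other collagen modification genes, 14 were tested, with 1 called higher, 0 lower and a median log2 fold change of 0.13. The call was Tmem38b, an endoplasmic reticulum cation channel whose loss impairs collagen modification in bone (0.94 ± 0.16 SE, adjusted p = 0.0426). P4hb, the partner of both P4ha subunits, gave 0.24 ± 0.12 (adjusted p = 0.302), with 1 array near its ceiling. Of the procollagen processing genes, 7 of 9 were tested and none was called in limma. Bmp1, the protease that trims procollagen and also activates lysyl oxidase, had ratios of -0.13, 0.02 and -0.04 in db/+ and of 0.29, -0.17 and -0.15 in db/db, the order seen for most members (0.04 ± 0.14, adjusted p = 0.924). Pcolce2, an enhancer of that protease, had the largest fold change of its list, -0.84 ± 0.44 (adjusted p = 0.323). It was -1.28 (adjusted p = 0.0329) when db/db replicate 1 was left out, -0.48 (0.532) when replicate 3 was, and -0.32 (0.536) with the epididymis covariate.

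The substrates of these enzymes, 16 collagen and elastin genes, had a median log2 fold change of 0.17 with none called, and their median log2 ratio in the db/db mice was 0.45, -0.13 and -0.13. In 10 of the 15 measured on all arrays, db/db replicate 1 was the highest. Col1a1, the main chain of collagen I, was represented by its brightest probe, with ratios of 0.45, 0.49 and 0.65 in the db/db mice and a log2 fold change of 0.44 ± 0.14 (adjusted p = 0.135), 1 array near the ceiling. Its 4 other probes gave between 0.91 and 1.39, of which the one at 0.91 ± 0.14 passed in a fit of every probe (adjusted p = 0.0384). The size of the Col1a1 difference therefore depended on the probe. Col1a2, its partner chain, gave 0.37 ± 0.49 (adjusted p = 0.676), Col3a1 of collagen III -0.15 ± 0.33 (0.825), Col6a3 of collagen VI 0.15 ± 0.37 (0.856) and elastin (Eln) -0.05 ± 0.07 (0.685). Col11a1, of collagen XI, had ratios of -0.42, 1.81 and 2.75 in the db/db mice, high in the same replicates 2 and 3 as the epididymis markers, and did not pass (1.28 ± 0.86, adjusted p = 0.448). Its probe was very dim, with a mean Cy5 of 0.04 in db/+, a few steps of the deposited values, so the size of its fold change is uncertain. It was 0.30 with the epididymis covariate (adjusted p = 0.851), 0.57 with the mean of all probes, 0.59 without db/db replicate 3, 0.86 with 0.05 added to both intensities and 2.17 without db/db replicate 1 (adjusted p = 0.0299). Among 9 of 12 fibre-associated proteins tested, 1 was called higher and 0 lower, with a median of 0.20. It was the proteoglycan Bgn, with a small log2 fold change of 0.20 ± 0.03 (adjusted p = 0.034).

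Lists of the signals known to act on these enzymes were set beside them. Of 9 TGF-beta ligands and targets, 1 was called higher, the latent TGF-beta binding protein Ltbp2 (0.98 ± 0.12, adjusted p = 0.0247), and 0 lower, with a median of 0.42; Tgfb1 itself gave 0.23 ± 0.13 (adjusted p = 0.347). Of 14 hypoxia response genes tested, 1 was called higher and 4 lower, with a median of -0.11. Vegfa, the endothelial growth factor, fell by 1.26 ± 0.21, Bnip3, a mitophagy receptor, by 1.17 ± 0.22 and Ndrg1, a stress response gene, by 1.08 ± 0.17 on the log2 scale (adjusted p = 0.0411, 0.0492 and 0.0359). The probes of Vegfa (mean Cy5 0.23 in db/+ and 0.0933 in db/db) and Ltbp2 (0.217 and 0.42) were dim. With 0.05 added to both intensities, their log2 fold changes were -0.92 and 0.84. Hif1a, the regulated subunit of hypoxia-inducible factor at the protein level, gave 0.36 ± 0.10 (adjusted p = 0.112; 0.42 and 0.0452 with array weights). The median adipocyte marker was also lower, at -1.20, and its part in these values was not tested.

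Endoplasmic reticulum chaperones, which share their compartment with P4ha2 and Serpinh1, had a median log2 fold change of 0.60 over 9 genes tested, with 1 called higher and 0 lower. Their median log2 ratio in the db/db mice was 0.19, 0.89 and 0.99, and in 7 of 9 replicates 2 and 3 were above the 4 other arrays, the order of P4ha2. Serpinh1 had the opposite order. The call was Dnajb11, a co-chaperone of BiP, at 0.44 ± 0.03 (adjusted p = 0.00939). Of the cytosolic heat shock genes, 7 of 8 were tested and none was called; Hspb1, a small heat shock protein, had the largest fold change, 0.83 ± 0.16 (adjusted p = 0.0559), and passed with loess (adjusted p = 0.036), an intensity filter (0.0258), an intensity trend (0.0429), array weights (0.0223), or without db/db replicate 1 (0.0444) or replicate 3 (0.0499), but with an adjusted p between 0.145 and 0.198 without any 1 db/+ mouse and of 0.156 without db/db replicate 2. Lep, the gene of leptin, whose receptor the db mutation disrupts, rose by 1.45 ± 0.21 (adjusted p = 0.0328). The Lep probe was dim (mean Cy5 0.17 in db/+ and 0.477 in db/db), and with 0.05 added to both intensities its log2 fold change was 1.22. Each of the called genes named from these lists, Tmem38b, Bgn, Ltbp2, Vegfa, Bnip3, Ndrg1, Dnajb11 and Lep, lost its call without at least 1 of the 6 arrays, with adjusted p-values of up to 0.18.

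The genes whose log2 ratios followed Lox most closely over the 6 arrays, by Pearson's r among 7545 genes bright enough in both groups, were Adam8 (r = 0.9984), Mtpn (0.9978), Soat1 (0.9969), Gpnmb (0.9964) and Ubd (0.9952). These values describe 6 arrays that fall into 2 groups, share a pool and were not tested. Adam8, a membrane protease of leukocytes, had ratios of 3.82, 2.86 and 3.11 in the db/db mice and a log2 fold change of 3.33 ± 0.27 (adjusted p = 0.0125). Gpnmb, a glycoprotein of macrophage lysosomes, had 3.36, 2.96 and 3.19 in the db/db mice and rose by 3.21 ± 0.16 (adjusted p = 0.00442), 1 array near the ceiling. Soat1, which esterifies cholesterol, rose by 2.10 ± 0.10, Ubd, a ubiquitin-like modifier, by 3.18 ± 0.30 and Mtpn, an actin capping protein regulator, by 0.52 ± 0.05 (adjusted p = 0.00404, 0.0165 and 0.0165). With the mean of all probes of a gene, Gpnmb gave 1.98 (adjusted p = 0.0288) and Soat1 1.24 (0.00581), so the size of both depended on the probe. Adam8, Mtpn and Ubd lost their call without any 1 of the db/+ mice (adjusted p between 0.0609 and 0.0944), and Soat1 and Gpnmb kept theirs without any 1 array. In all 5, as in Lox, db/db replicate 1 was the highest and replicate 3 the next. The 5 were picked for their likeness to Lox on these same arrays, so a shared order was largely set by the choice. Of the 7545 genes, 288 had an r over 0.95 to Lox.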

How the data were processed

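RNA of eWAT from 3 db/db and 3 db/+ mice was amplified in 2 rounds and hybridised to 6 two-colour arrays, per the labels' protocols, and read with Agilent Feature Extraction 8.5.1.1, per the submitters' processing notes. The authors deposited a table of Cy5 and Cy3 intensities for 23556 probes on a normalised scale, 97.3% of them in whole steps of 0.01 (to within 1e-06 of a step), and a matrix of log10 ratios, which on the db/+ arrays differed from log10 of the table's ratios by at most 0.00125. How background was corrected and arrays were normalised is not given in the sources. In the table the db/db arrays are headed by mouse numbers, so values by replicate number come from the matrix. Between 23355 and 23506 probes per array were measured, and the SD of log2 ratios over probes was 0.23 to 0.28 on db/+ and 0.53 to 0.68 on db/db arrays. The number of arrays limits the precision.

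Log2 ratios were used as deposited, with no further normalisation or filter, and the median of every array was 0.0. Symbols were updated through a RefSeq table (GRCm38.p6): the symbol was current for 17207 probes, a synonym led to a new one for 1790 and an accession for 318, with 7 more named from the accession alone; 2017 kept the file's name and 2217 had none. A gene was represented by its brightest fully measured probe. db/db was compared with db/+ with limma 3.58.1 in R 4.3.3 (lmFit, eBayes) over 17024 genes with at least 2 values per group, with Benjamini-Hochberg adjustment over all of them and a threshold of 0.05. The fit was tested on data simulated with the same spread in both groups. The db/db arrays spread more than the db/+ arrays, and that test does not cover unequal spread. Adjusted p-values in the text are from the limma fit unless another test is named, and deposited p-values were not used. Pairs of members were compared by exact permutation in scipy 1.17.1 with Python 3.11.15.

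The members, lists and naming rule were chosen with earlier results of these data known. The rule named the members with every probe, 10 preset genes, the up to 3 called genes with the largest change of each related list (or the largest where none was called) and the 5 genes most like Lox with a mean Cy5 intensity of at least 0.2 in both groups. Lists describe and were given no test of their own. Near the ceiling means within 1% of an array's highest intensity, which was between 26.8 and 30.5 in Cy5. Alternatives changed the scaling, the channel, the filter, the choice of probe, the variance model and the arrays used.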

Additional observations from a re-analysis of the deposited data

How the results depend on the processing

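With 3 arrays per group, and probes as dim as Loxl3, P4ha1 and the other Loxl2 probe read in coarse steps, small differences of single members could not be resolved, and the 95% intervals of 6 members were over 1 log2 unit wide. Lox kept its direction under all 19 alternatives (0.73 to 1.33) and passed under 16. The number of genes called was 1138 in limma as reported, 0 after quantile normalisation (2095 at an unadjusted p under 0.05), 481 with Cy5 intensity alone, 2854 with array weights and, leaving out 1 array at a time, between 54 and 3427 (168, 116 and 54 without db/+ replicates 1, 2 and 3; 3427, 249 and 580 without db/db replicates 1, 2 and 3). With db/db replicate 1 alone, chosen after seeing the data, it was 1791. The share of higher genes among the calls was 43.7%, against 59.8% with the epididymis covariate, 57.4% without db/+ replicate 3, 58.6% without db/db replicate 2 and 63.4% with db/db replicate 1 alone. The members called numbered 1 as reported, 0 after quantile normalisation, 2 with array weights (Lox and P4ha2), 2 with db/db replicate 1 alone, and between 0 and 3 leaving out 1 array at a time. Their median, 0.04 as reported, was 0.34 with db/db replicate 1 alone. Under the other alternatives it ran from -0.15 without db/db replicate 1 to 0.19 with the epididymis covariate, and it was -0.08 with array weights. The causes were not tested.

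Replicate numbers did not pair the arrays: deviations from the group means correlated at -0.48, -0.413 and -0.023 between same-numbered arrays. With the replicate number as a block, limma called 0 genes (3085 at an unadjusted p under 0.05) and 0 members, with Lox at an adjusted p of 0.14; the block leaves fewer residual degrees of freedom.

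Members and preset genes that did not pass changed sign under some alternatives. These were P4ha1 (0.04) and Serpinh1 (0.06) after quantile normalisation; Loxl1 (-0.08), Loxl2 (-0.08), Plod2 (-0.11), Col6a3 (-0.14) and Bmp1 (-0.06) with array weights; Plod3 (0.04), P4ha1 (0.12), Serpinh1 (0.12) and Col3a1 (0.15) with the epididymis covariate; and Plod3 (0.26), P4ha1 (0.31), Serpinh1 (0.39), Col3a1 (0.42), Pcolce2 (0.04) and Col11a1 (-0.52) with db/db replicate 1 alone. Leaving out 1 array at a time, the ranges that crossed 0 were -0.21 to 0.31 for Loxl1, -0.13 to 0.12 for Loxl2, -0.02 to 0.12 for Loxl3, -0.16 to 0.13 for Plod2, -0.32 to 0.03 for P4ha1, -0.36 to 0.05 for Serpinh1, -0.06 to 0.80 for Col1a2, -0.44 to 0.13 for Col3a1, -0.24 to 0.41 for Col6a3, -0.10 to 0.01 for Eln and -0.11 to 0.12 for Bmp1. Of the differences between members, Lox minus Loxl2 moved to 0.98 with the mean of all probes, and with Cy5 alone Lox minus Loxl3 moved to 1.01, Lox minus Plod2 to 1.00 and Plod2 minus Plod1 to -0.17. Tmem38b, Bgn, Dnajb11, Vegfa, Bnip3, Ndrg1, Ltbp2 and Lep each lost their call under several alternatives.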
